A study of Mus musculus with 6 samples.

Results

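The 10 genes described here encode the core of the machinery for pyroptosis and necroptosis, and each was found by its symbol as a single row among the 56747 gene rows of the deposited table. They are the inflammasome sensor Nlrp3, its adaptor Pycard, the caspases Casp1, Casp4 and Casp8, the gasdermins Gsdmd and Gsdme, the kinases Ripk1 and Ripk3, and the membrane effector Mlkl. All 10 passed the filter on low counts and were among the 17557 genes tested. Whole-kidney RNA came from male wild-type C57BL/6J mice 24 h after a 30 min block of the renal blood supply. Both groups carry that injury, and no uninjured kidney was analysed here. The saline group (3 libraries, given as untreated in the sample labels and as oral saline in the design text) was compared with the tacrolimus group (3 libraries, mice dosed by mouth at 1 mg/kg/day for 1 day and then operated on). Tacrolimus is an immunosuppressant that inhibits the phosphatase calcineurin. The design text words the surgery as partial bilateral ischemia for the saline mice and as occlusion of both renal arteries for the tacrolimus mice, so surgery and drug cannot be told apart if the procedures differed. It gives 6 animals per group, and nothing ties a library to an animal, so the p-values speak only of how far these libraries scatter.

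Pyroptosis is a lytic death in which a protease, often an inflammatory caspase, cuts a gasdermin, whose freed part then forms pores in the plasma membrane. Caspase-1 is activated on an inflammasome, for which NLRP3 is a sensor and ASC, the product of Pycard, the adaptor, while mouse caspase-11, the product of Casp4, responds to cytosolic lipopolysaccharide. Necroptosis runs instead from death receptors through RIPK1 and RIPK3 to MLKL, and active caspase-8 holds it back by cutting the RIP kinases. All of these proteins are switched on after translation, so transcript levels describe how much of the machinery's message is present and not whether either death is under way.

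Tacrolimus libraries held fewer Casp8 and Mlkl transcripts than saline replicates 2 and 3, and close to the number in saline replicate 1. Casp1, at a very low level, was highest in the tacrolimus libraries, whereas Ripk1 hardly varied at all. With all 6 libraries, 0 of the 10 genes passed the test (edgeR quasi-likelihood test, adjusted p from 0.392 to 0.824), against 2 of 17557 genes, or 0.0114%, over the whole table. DESeq2 also called 0 of the 10, against 1.96% of all genes. At an unadjusted p under 0.05 there were 2 of the 10, Casp8 and Mlkl, both lower with tacrolimus, where 7.72% of all genes tested were lower at that p. The fitted fold was below 1 for 6 of the 10 genes, against 50.7% of all genes, and their median log2 fold change was -0.38, against -0.0069 over all genes tested.

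**Figure D1:**
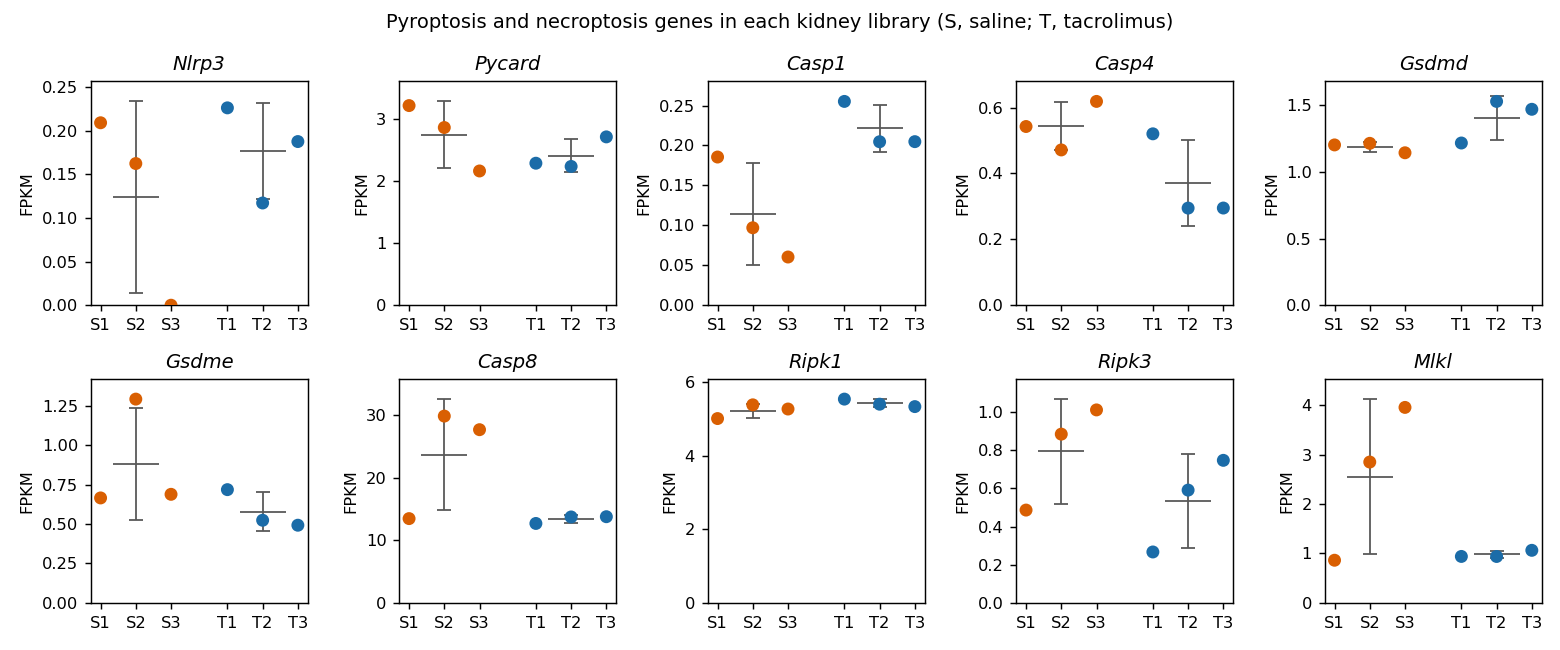
FPKM (vertical axes, linear from 0, each with its own scale) of the 10 genes in saline libraries S1 to S3 (orange) and tacrolimus libraries T1 to T3 (blue), with bars for mean ± SD of each group. For Casp8 and Mlkl, S2 and S3 stand above the other 4 libraries, among which S1 lies; Ripk1 stays between 5.01 and 5.53 FPKM in all 6.

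The libraries held 38443534 to 44476844 gene-level counts. Markers of proximal tubule, thick limb, collecting duct and podocyte (Slc34a1, Umod, Aqp2 and Nphs1) were present in every library. Saline replicate 1 stood apart from the other saline libraries in its proximal tubule and injury markers. Its 8 proximal tubule markers summed to 1473 FPKM, against 549 and 448 in saline replicates 2 and 3 and 1552 to 1746 with tacrolimus. Its 7 tubular injury markers summed to 4462 FPKM, against 17778 and 17178 in the other saline libraries and 1443 to 4474 with tacrolimus. Without it the same test called 2534 of 18081 genes (14.0%), 6.16% of all genes lower and 7.85% higher, and 2 of the 10 genes, Casp8 and Mlkl, were among those called lower. Of the other 8, Casp1 then had the lowest adjusted p (0.0900) and Ripk1 the highest (0.924). Leaving out any other single library gave 0 or 1 genes called over the whole table. Saline replicate 1 is set out here and below because of its values in these same data. Calls without it are therefore no independent test.

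Levels between genes can be set side by side in FPKM, which divides by gene length, and the 6-library means ran over a range from 18.6 FPKM for Casp8 to 0.150 FPKM for Nlrp3. Ripk1 came next at 5.32 FPKM, followed by Pycard at 2.58 FPKM. Casp8 and Ripk1 were clear of each other and of the rest in all 6 libraries. Below them, Pycard, Mlkl (1.77 FPKM), Gsdmd (1.30 FPKM), Gsdme (0.730 FPKM), Ripk3 (0.665 FPKM) and Casp4 (0.457 FPKM) came in that order, each overlapping its neighbor. Casp1, at 0.168 FPKM, lay below Casp4 in every library and overlapped Nlrp3. The sensor and the caspase of the classical inflammasome were thus the scarcest of the 10 transcripts. The order of the 2 gasdermins depends on the length used. The FPKM of Gsdme rests on 12742 bases, whereas the table lists its gene length as 4628 bases, and per listed length it would stand at 2.01 against 1.72 for Gsdmd. On that scale Casp4 (0.892) would also pass Ripk3 (0.776).

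Casp8, which encodes the caspase that starts death-receptor apoptosis and restrains necroptosis, was the most abundant of the genes. It stood at 13.5, 29.9 and 27.7 FPKM in the saline libraries (replicates 1 to 3 in order, here and below) and at 12.7, 13.8 and 13.8 FPKM in the tacrolimus libraries. Saline replicates 2 and 3 were 2.22 and 2.05 times as high as saline replicate 1, which lay inside the tacrolimus range, so the groups overlapped. The counts behind these values were 1563 to 1678 with tacrolimus and 1610, 3413 and 3390 with saline. Fitted over all libraries, the log2 fold change came to -0.83 ± 0.29 (SE; adjusted p = 0.392, edgeR). Without saline replicate 1 Casp8 passed the test, at -1.11 ± 0.10 on the log2 scale (SE; adjusted p = 0.00556, edgeR). The gene (ENSMUSG00000026029) lies at 58834533 to 58886662 on the plus strand of chromosome 1 of GRCm39.

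Mlkl encodes the pseudokinase that, once phosphorylated by RIPK3, breaches the plasma membrane in necroptosis. Its values were 0.863, 2.85 and 3.95 FPKM with saline and 0.940, 0.939 and 1.06 FPKM with tacrolimus. Saline replicate 1 was the lowest of the 6 libraries, while saline replicates 2 and 3 were the highest, 3.30 and 4.58 times saline replicate 1. The tacrolimus libraries lay close together, at 0.981 ± 0.0716 FPKM (SD, n = 3), and the saline libraries far apart, at 2.56 ± 1.57 FPKM (SD, n = 3). With all libraries the log2 fold change was -1.39 ± 0.52 (SE; adjusted p = 0.393, edgeR). Without saline replicate 1 Mlkl passed the test, at -1.80 ± 0.22 (SE; adjusted p = 0.00899, edgeR). Without saline replicate 3 the value shrank to -0.92 (adjusted p = 0.596), and in limma on log2(FPKM + 1) it was -0.73. Mlkl is ENSMUSG00000012519, at 112038429 to 112064809 on the minus strand of chromosome 8.

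Most neutrophil and injury markers were high in the same libraries. As for both genes, 5 of 6 tested neutrophil markers and 6 of 7 injury markers had their highest values in saline replicates 2 and 3. The exceptions were Csf3r, which was lower in saline replicate 3 (0.459 FPKM) than in saline replicate 1 (0.685 FPKM), and Vcam1, which was highest in saline replicate 1 (2.71 FPKM), both named after their values were seen. All 6 tested neutrophil markers had lower values with tacrolimus, and their list summed to 12.4, 30.7 and 54.1 FPKM with saline and 5.58 to 8.69 FPKM with tacrolimus, with Ly6g and Mpo listed at 0 in every library. The injury marker Havcr1, which encodes KIM-1, was at 116, 690 and 463 FPKM with saline and at 6.48, 25.0 and 51.5 FPKM with tacrolimus. Unlike Casp8 and Mlkl, Havcr1 and the neutrophil gene S100a8 kept the groups apart in all 6 libraries. The part of these cells and of tubular injury in the Casp8 and Mlkl values was not tested. How many of all genes were highest in saline replicates 2 and 3 was not counted, so the marker counts cannot be weighed. In whole-kidney RNA, fewer cells of a type and less RNA per cell cannot be told apart.

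**Figure D2:**
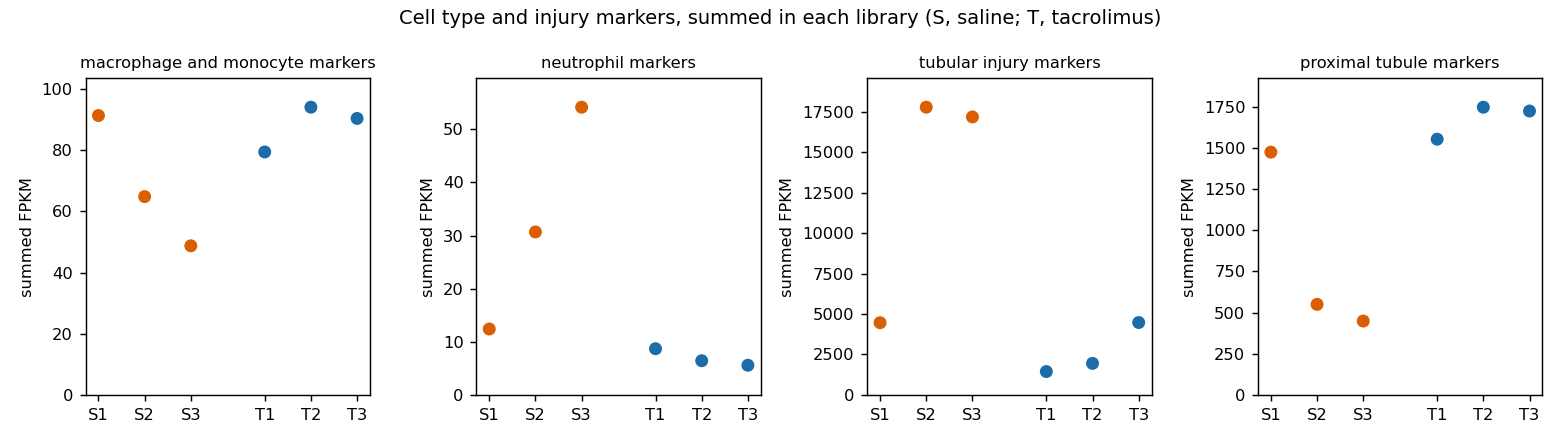
Summed FPKM (vertical axes, linear from 0) of 12 macrophage and monocyte, 8 neutrophil, 7 tubular injury and 8 proximal tubule markers in saline libraries S1 to S3 (orange) and tacrolimus libraries T1 to T3 (blue). S2 and S3 have the highest neutrophil and injury sums and the lowest macrophage and proximal tubule sums.

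The promoters of these 2 genes are shown because they were the only members called when saline replicate 1 was left out, and that of Casp4 because it held the most motif matches among the genes. Each is the 250 bases before a transcript start in RefSeq (build GRCm38.p6, an older build than that of the count table), written 5′ to 3′ on the gene's strand. Capitals mark matches, on either strand, to the NF-kB consensus motif. Of the 10 genes 9 had such an entry, with 12 windows in all. A RefSeq start need not be the gene start of the count table. Whether the Casp8 window lies before the gene start given above was not checked.
Casp8, chr1:58802252-58802501, plus strand: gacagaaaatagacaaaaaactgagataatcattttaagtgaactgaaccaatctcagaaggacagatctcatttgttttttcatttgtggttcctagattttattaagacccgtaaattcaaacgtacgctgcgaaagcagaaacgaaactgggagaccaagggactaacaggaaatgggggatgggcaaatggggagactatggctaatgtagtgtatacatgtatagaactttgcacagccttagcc
Mlkl, chr8:111338206-111338455, minus strand: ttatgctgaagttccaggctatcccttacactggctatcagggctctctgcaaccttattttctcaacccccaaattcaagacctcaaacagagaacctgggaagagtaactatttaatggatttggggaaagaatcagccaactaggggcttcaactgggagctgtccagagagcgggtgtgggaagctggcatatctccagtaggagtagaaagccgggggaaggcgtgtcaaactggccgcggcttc
Casp4, chr9:5308599-5308848, plus strand: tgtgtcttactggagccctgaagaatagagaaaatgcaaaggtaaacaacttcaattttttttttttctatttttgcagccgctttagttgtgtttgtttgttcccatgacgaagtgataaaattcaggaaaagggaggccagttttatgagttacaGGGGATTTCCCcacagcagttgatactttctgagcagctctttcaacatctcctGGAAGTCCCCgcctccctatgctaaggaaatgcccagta
Both strands were searched for the core of the interferon-stimulated response element (GAAA, any 2 bases, GAAA), the STAT site GAS (TTCNNNGAA), the AP-1 site (TGANTCA) and the NF-kB consensus, which stood in 2.98%, 7.02%, 6.75% and 7.25% of all 32851 windows of that length. The Casp8 and Mlkl windows held no match to any of the 4, which says only that these letters are not in these windows. The Casp4 window held 3 NF-kB matches, of which 2 overlap. A match is a description of the letters and not of binding.

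Ripk1 and Ripk3 encode the kinases that relay a death-receptor signal to MLKL. Ripk1 was at 5.01, 5.38 and 5.26 FPKM with saline and at 5.53, 5.40 and 5.33 FPKM with tacrolimus, and its highest library exceeded its lowest by a factor of only 1.11. Its log2 fold change was 0.046 ± 0.099 (SE; adjusted p = 0.824, edgeR), the smallest in size of the 10 and with the smallest SE. Ripk3 was scarcer and more variable, at 0.487, 0.884 and 1.01 FPKM with saline and 0.267, 0.591 and 0.747 FPKM with tacrolimus. Saline replicates 2 and 3 again were the 2 highest libraries, but tacrolimus replicates 2 and 3 were above saline replicate 1 and the groups overlapped. For Ripk3 the log2 fold change was -0.58 ± 0.47 (SE; adjusted p = 0.541, edgeR), and -0.83 ± 0.46 without saline replicate 1 (SE; adjusted p = 0.260). It shrank to -0.26 without tacrolimus replicate 1 and to -0.36 without saline replicate 3, and reached -0.91 without tacrolimus replicate 3. Ripk1 shares its locus with the antisense gene Serpinb6a, which had 878 to 2168 counts per library, so with strand use unknown its count may hold reads of that gene.

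The ratio of Casp8 to its partners differed between libraries. Against Ripk1, the ratio of FPKM values was 2.70, 5.56 and 5.27 with saline and 2.30 to 2.59 with tacrolimus. Cflar, which encodes cFLIP, the caspase-8-like protein that pairs with caspase-8 and curbs its activity, was at 11.0, 13.3 and 12.4 FPKM with saline and 11.0, 11.1 and 12.2 FPKM with tacrolimus (log2 fold change -0.10 ± 0.12 SE; adjusted p = 0.672, edgeR). The Casp8 to Cflar ratio was accordingly 1.22, 2.25 and 2.24 with saline and 1.15, 1.24 and 1.13 with tacrolimus. Saline replicates 2 and 3 thus held more Casp8 message per Cflar message than any other library, and saline replicate 1 lay within the tacrolimus range. These ratios were chosen after the values were seen.

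Casp1 encodes the protease that matures interleukin-1 beta and interleukin-18 and cuts gasdermin D. It stood at 0.186, 0.0970 and 0.0603 FPKM with saline and at 0.255, 0.205 and 0.205 FPKM with tacrolimus. These rest on few reads, 24, 12 and 8 counts with saline and 34, 27 and 27 with tacrolimus. Every tacrolimus library was above every saline library, as held for 11.1% of all genes tested. Of the 10 genes, Casp1 alone kept the groups apart in both FPKM and TMM-scaled CPM. On the log2 scale Casp1 differed by 0.94 ± 0.49 (SE; adjusted p = 0.418, edgeR), and 1.48 ± 0.47 without saline replicate 1 (SE; adjusted p = 0.0900).

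Nlrp3, the sensor that responds to potassium efflux and membrane damage, had 35, 26 and 0 counts with saline and 39, 20 and 32 with tacrolimus. In FPKM it was 0.209, 0.162 and 0 with saline and 0.226, 0.117 and 0.188 with tacrolimus. Saline replicate 3 is thus listed at 0 in the deepest of the 6 libraries, where 3 counts would amount to 0.0675 CPM (counts per 1e6 counts), and the other 5 libraries overlap. Its log2 fold change was 0.51 ± 1.04 (SE; adjusted p = 0.814, edgeR), and without saline replicate 3 the sign turned (-0.074; adjusted p = 0.956). It was 1.12 without saline replicate 1 and 0.30 without tacrolimus replicate 1.

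The macrophage markers followed Casp1 in part. Of 12, 7 had their lowest values in saline replicates 2 and 3, as Casp1 did. The share of all genes with that pattern was not counted. The 12 macrophage and monocyte markers summed to 91.3, 64.8 and 48.7 FPKM with saline and to 79.4 to 94.0 FPKM with tacrolimus, a sum made up mostly of Lyz2, the C1q genes, Cd68 and Csf1r, with none of the markers at 0 in every library. Of these 12, 9 had the higher value with tacrolimus, Adgre1 (F4/80) among them at 1.49, 0.376 and 0.0877 FPKM with saline and 1.32, 2.08 and 1.87 FPKM with tacrolimus. The complement gene C1qa was at 14.5, 8.36 and 3.66 FPKM with saline and 13.1, 17.8 and 15.6 FPKM with tacrolimus. In Ly6c2, Cd68, Itgam, Ccr2 and Fcgr1, saline replicates 2 and 3 were not both below all the other libraries. Ly6c2, a marker of recruited monocytes, was highest in saline replicate 3 (0.691 FPKM) and Cd68 in saline replicates 2 and 3 (16.5 and 27.4 FPKM). Relative to Csf1r, the CSF-1 receptor of macrophages, Casp1 FPKM was 0.0311, 0.0459 and 0.0293 with saline and 0.0442, 0.0333 and 0.0367 with tacrolimus, and the groups overlapped. Markers beyond Adgre1, C1qa and Ly6c2 were picked after their values were seen, and the part of macrophages in the Casp1 values was not tested.

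Pycard encodes ASC, which links NLRP3 to caspase-1. It was at 3.22, 2.87 and 2.17 FPKM with saline and 2.29, 2.24 and 2.72 FPKM with tacrolimus, with overlapping groups. Its log2 fold change was -0.20 ± 0.19 (SE; adjusted p = 0.615, edgeR), with -0.068 without saline replicate 1 and -0.34 without saline replicate 3. Casp4 lies next to Casp1 on chromosome 9, with 1537 bases between the gene models, yet its values did not follow those of Casp1. They were 0.542, 0.471 and 0.619 FPKM with saline and 0.520, 0.295 and 0.295 FPKM with tacrolimus, so tacrolimus replicates 2 and 3 were the lowest and tacrolimus replicate 1 lay among the saline libraries. For Casp4 the log2 fold change was -0.56 ± 0.33 (SE; adjusted p = 0.435, edgeR), and without tacrolimus replicate 1 it was -0.89 (adjusted p = 0.641). Casp1 spans 5298508 to 5307290 and Casp4 5308828 to 5336783, both on the plus strand.

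The gasdermins execute pyroptosis, and Gsdmd acts downstream of caspase-1 and caspase-11. Gsdmd was at 1.20, 1.22 and 1.14 FPKM with saline, the tightest saline group of the 10 genes relative to its mean, and at 1.22, 1.53 and 1.47 FPKM with tacrolimus. Tacrolimus replicate 1 exceeded the saline libraries only beyond the second decimal, and in CPM scaled by TMM it lay among them, so the groups cannot be called apart. On the log2 scale Gsdmd differed by 0.23 ± 0.21 (SE; adjusted p = 0.574, edgeR). Gsdme was at 0.666, 1.29 and 0.689 FPKM with saline and 0.718, 0.524 and 0.493 FPKM with tacrolimus. Saline replicate 2 alone was high, at 1.94 times saline replicate 1, and the other saline libraries lay below tacrolimus replicate 1. For Gsdme it was -0.62 ± 0.31 (SE; adjusted p = 0.414, edgeR), and -0.24 without saline replicate 2 (adjusted p = 0.686). The antisense gene Pals2 overlaps Gsdme and had 3967 to 5184 counts per library, so the Gsdme count may hold some of its reads.

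**Figure D3:**
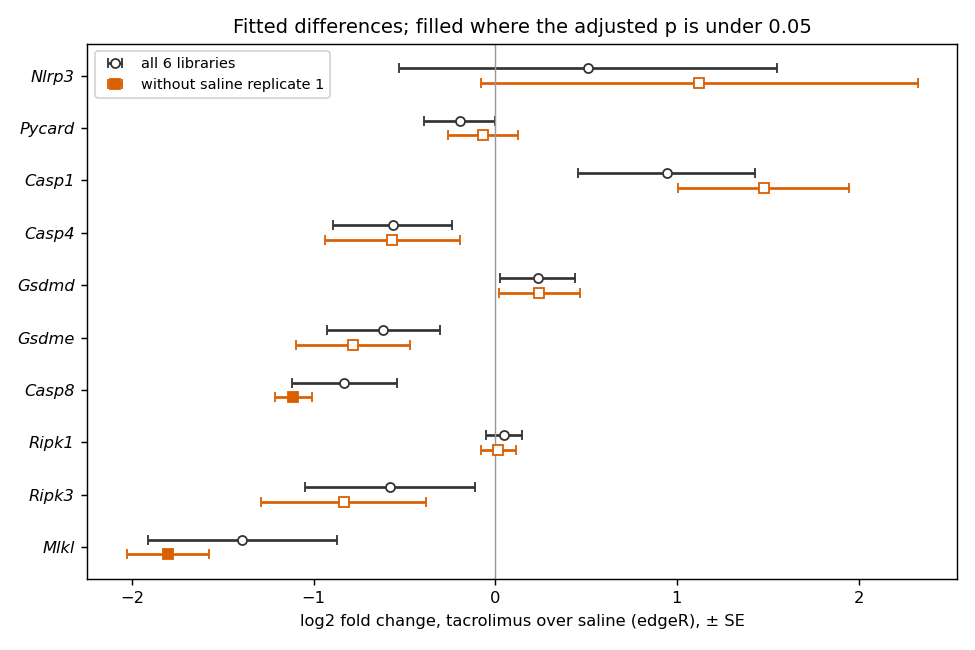
log2 fold change of tacrolimus over saline (horizontal axis) ± SE for the 10 genes, from edgeR with all 6 libraries (circles) and without saline replicate 1 (squares). Filled symbols mark an adjusted p under 0.05 over all genes tested, which holds for Casp8 and Mlkl without saline replicate 1 and for no gene with all libraries.

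The 66 other genes of these pathways, in 5 lists, gave 56 tested genes, of which 34 had lower and 22 higher fitted values with tacrolimus (median log2 fold change -0.11). Over all genes tested, 50.7% had lower values. By edgeR 0 of the 56 passed with all libraries, 9 were lower at an unadjusted p under 0.05 (7.72% of all genes were) and 1 higher, and DESeq2 called 3 (1.96% of all genes), Birc3, Panx1 and Il1rn, all lower. Without saline replicate 1, 10 of 57 were called lower (17.5% in place of 6.16% over all genes) and 3 higher (5.26% in place of 7.85%). The 10 include Gsdma, which passed the low-count filter only in that fit. It had 0, 21 and 12 counts with saline and 0 in every tacrolimus library. The lists were chosen with earlier results of these data known, so these shares are a description and not a test.

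Among receptors and other inputs of necroptosis, 8 of 12 tested genes were lower and 0 passed with all libraries (median log2 fold change -0.12). Tnfrsf1a, the TNF receptor that assembles the RIPK1 complex, was at 33.1, 56.5 and 59.7 FPKM with saline and 27.9, 30.9 and 33.9 FPKM with tacrolimus. As for Casp8, saline replicates 2 and 3 were high and saline replicate 1 lay inside the tacrolimus range. Without saline replicate 1 it passed at a log2 fold change of -0.92 (adjusted p = 0.00899, edgeR). Tnfrsf10b, the TRAIL receptor, passed likewise (-1.17, adjusted p = 0.0214), and Tnfrsf1b did not (-0.81, adjusted p = 0.0825). In that fit 6.16% of all genes were called lower. The ligand Tnf was scarce, at 0.144 to 0.251 FPKM with saline and 0.145 to 0.276 FPKM with tacrolimus, and the nucleic acid sensor Zbp1 at 0.136 to 0.330 and 0.209 to 0.357 FPKM. Neither separated the groups.

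Of the 13 listed regulators of RIPK1 and caspase-8, 11 were lower (50.7% of all genes were) and 0 passed with all libraries (median log2 fold change -0.22). In 3 of them no tacrolimus library reached a saline library, where 10.6% of all genes were apart on the lower side. These were the ubiquitin ligase genes Birc3 and Birc2, which encode cIAP2 and cIAP1, and Tnfaip3, which encodes the deubiquitinase A20. Birc3 was at 3.09, 4.80 and 4.94 FPKM with saline and 1.61, 1.68 and 2.21 FPKM with tacrolimus (log2 fold change -1.23 ± 0.23 SE; adjusted p = 0.392, edgeR; 0.00182 by DESeq2). Saline replicate 1 stood between the tacrolimus libraries and the other saline libraries. Tnfaip3 was at 1.33, 1.71 and 1.78 FPKM with saline and 1.04, 1.08 and 1.02 FPKM with tacrolimus, and Birc2 at 6.87, 7.57 and 8.76 and at 6.04, 6.03 and 6.42 FPKM. Without saline replicate 1, Birc3, Tnfaip3 and Otulin were called lower (edgeR), where 6.16% of all genes were.

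**Figure D4:**
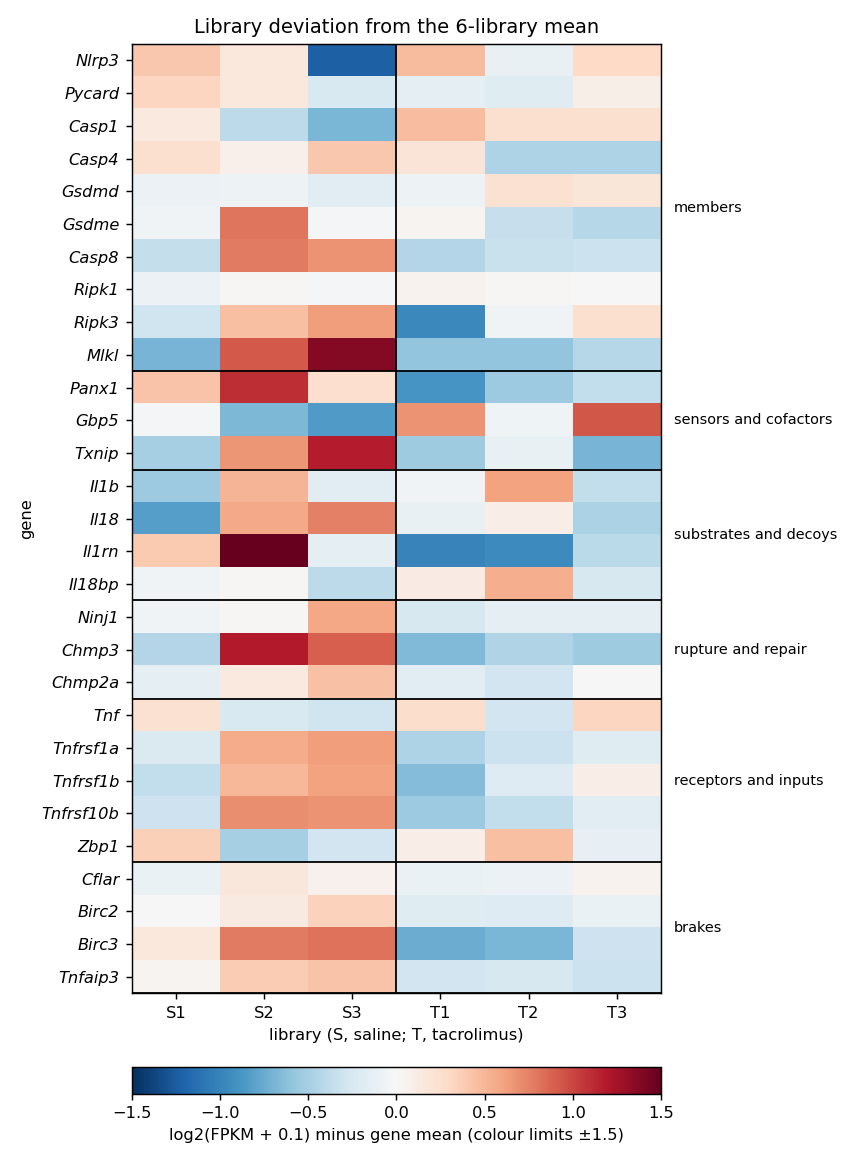
Deviation of each library from the gene's 6-library mean, in log2(FPKM + 0.1), for the 10 genes and some of the other named pathway genes (rows), with red above and blue below the mean. In columns S2 and S3 Casp8, Mlkl, Chmp3, Tnfrsf1a and Birc3 are red, whereas Casp1 and Gbp5 are blue.

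Of 13 tested inflammasome sensors and cofactors, 4 were lower and 9 higher, and 0 passed with all libraries (median log2 fold change 0.47). The channel gene Panx1, whose product releases ATP, had 0.390, 0.685 and 0.333 FPKM with saline and 0.0976, 0.150 and 0.181 FPKM with tacrolimus, without overlap (log2 fold change -1.72 ± 0.40 SE; adjusted p = 0.392, edgeR; 0.0118 by DESeq2). Of the 13, 1 had the groups apart on the lower side and 2 on the higher side (10.6% and 11.1% of all genes). Txnip, which encodes a thioredoxin-binding protein that can bind NLRP3, was at 55.3, 124 and 176 FPKM with saline and 53.9, 71.9 and 47.9 FPKM with tacrolimus. Gbp5, an interferon-induced GTPase that aids NLRP3 assembly, lay on the other side, at 0.172, 0.0725 and 0.0535 FPKM with saline and 0.340, 0.165 and 0.426 FPKM with tacrolimus. Without saline replicate 1, Panx1 and Txnip were called lower (6.16% of all genes) and Gbp5, Naip2 and Nlrp6 higher (7.85% of all genes). Nlrp6 was at 11.8, 3.09 and 1.55 FPKM with saline and 17.2, 13.6 and 12.2 FPKM with tacrolimus, without overlap.

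Substrates of the inflammasome caspases were low and overlapped between groups. Il1b was at 0.242, 0.611 and 0.347 FPKM with saline and 0.383, 0.661 and 0.287 FPKM with tacrolimus, and Il1a was listed at 0 in every library. Il18, which tubule cells express, was at 0.376, 1.16 and 1.33 FPKM with saline and 0.685, 0.807 and 0.508 FPKM with tacrolimus. Il1rn, which encodes the interleukin-1 receptor antagonist, had 0.372, 1.47 and 0.227 FPKM with saline and 0.0808, 0.0859 and 0.172 FPKM with tacrolimus, without overlap (log2 fold change -2.62 ± 0.78 SE; adjusted p = 0.392, edgeR; 0.0255 by DESeq2). In 10.6% of all genes tested the groups were likewise apart on the lower side. Il18bp, the interleukin-18 decoy, had a log2 fold change of 0.34 (adjusted p = 0.571, edgeR). Of the 9 tested genes of this list 5 were lower and 4 higher, 0 passed, and none was called without saline replicate 1 (edgeR; 1 with an unadjusted p under 0.05 with all libraries).

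Of the other gasdermins and the genes of membrane rupture and repair, 6 of 9 tested were lower and 0 passed with all libraries (median log2 fold change -0.14). Ninj1, whose product ruptures the membrane after pore formation, was at 30.3, 31.7 and 46.8 FPKM with saline and 26.5, 28.3 and 28.5 FPKM with tacrolimus (log2 fold change -0.40 ± 0.19 SE; adjusted p = 0.409, edgeR). Chmp3, a subunit of the ESCRT-III complex that reseals membranes, was at 11.7, 36.3 and 29.7 FPKM with saline and 10.0, 11.6 and 10.9 FPKM with tacrolimus. Like Casp8 and Mlkl it was high only in saline replicates 2 and 3, but saline replicate 1 also lay slightly above every tacrolimus library. Without saline replicate 1 Chmp3 passed at a log2 fold change of -1.62 (adjusted p = 0.00460, edgeR). Ninj1 and Chmp3 were the 2 of the 9 with the groups apart on the lower side (10.6% of all genes). Chmp2a, of the same complex, was at 60.8, 74.6 and 91.8 FPKM with saline and 60.5, 55.2 and 68.0 FPKM with tacrolimus. Chmp4b was at 52.8, 81.5 and 109 FPKM with saline and 58.0, 61.5 and 61.7 FPKM with tacrolimus. Without saline replicate 1 it was also called lower (-0.67, adjusted p = 0.0352, edgeR), as were 6.16% of all genes. Gsdma2, Gsdma3 and Gsdmc were listed at 0 in every library, but not all other gasdermins were absent. Gsdmc2 was at 2.06, 0 and 1.37 FPKM with saline and 2.88, 5.02 and 0.401 FPKM with tacrolimus. Gsdmc3 was at 1.06, 0 and 0.274 FPKM with saline and 1.44, 2.92 and 0.133 FPKM with tacrolimus. For both the groups overlapped.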

How the data were processed

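The 10 genes and all lists were chosen with earlier results of these data known. For every gene and library the deposited table holds a raw count of reads and an FPKM value, per the file headers. Coordinates are on GRCm39, named in the submitters' processing notes. The sources used here do not give the aligner, counter, annotation or strand setting. In the deposited FPKM, the implied library total was 0.950 to 1.03 times the count sum, and the implied length equaled the listed gene length (within 0.1%) for 11.0 to 11.6% of genes with at least 1000 counts and was longer for the others. The gene length column, a length in bases, was deposited by the authors. RNA was extracted with TRIzol or a column kit, per the labels' protocols.

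Counts were fitted over the whole table with edgeR 4.0.16 in R 4.3.3: filterByExpr (minimum count 10, total 15), TMM factors (0.942 to 1.03), glmQLFit with robust moderation, glmQLFTest, and Benjamini-Hochberg adjustment over 17557 genes, with 0.05 as the threshold. Each SE is the size of the log2 fold change divided by the square root of F. Printed levels are the authors' FPKM. Alternatives were DESeq2 1.42.0 on the counts, limma 3.58.1 on log2(FPKM + 0.1) and log2(FPKM + 1) of genes with a mean FPKM of at least 0.1, other scaling, no filter, no robust moderation, a replicate block and each library left out. The tests were tried on simulated counts, with the outcome not reported here. No pair of libraries agreed within sampling noise (chi-square per degree of freedom at least 47.9). Beyond the 10 members, the text names up to 3 genes per list with the smallest unadjusted p and some fixed by name. Others are named where they were called or listed at 0, after their values were seen, as are Gsdmc2 and Gsdmc3. Of the listed genes, 2 are counted in their list but not reported here.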

Additional observations from a re-analysis of the deposited data

How the results depend on the processing

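Of 130 values of single genes (10 genes, 13 alternatives), 127 kept the direction and the side of the threshold of the fit with all 6 libraries. Casp8 and Mlkl passed without saline replicate 1, and Nlrp3 turned to -0.074 without saline replicate 3, the library with 0 counts (up to 1.12 without another library); the cause of the first change was not tested. Genes called over the whole table numbered 2 with all libraries, 344 with DESeq2, 1 with limma at either pseudocount, 1 with the replicate block and 0 to 2534 when a library was left out. Members called were 0 throughout, except for 2 without saline replicate 1, so leaving out a library gave 0 to 2, and the members with lower values numbered 6 or 7. Pathway genes called were 0, 3 with DESeq2 and 0 to 13 when a library was left out. Same-numbered libraries did not deviate together from their group means (correlations of -0.0229, -0.00946 and -0.0474 in log2 CPM with each gene's group mean taken off). The highest such value was between saline replicate 2 and tacrolimus replicate 3 (0.136), and the highest for saline replicate 1 was with tacrolimus replicate 2 (0.0877). With the group means taken off, these values do not measure how alike the libraries are. The numbers thus showed no sign of pairing the libraries, which a check on so few libraries cannot exclude. With few counts for Casp1 and Nlrp3, counting error adds to the spread between libraries.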
